A study of Mus musculus with 6 samples.

Results

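The mitochondrial ribosomal protein genes encode the protein part of the mitochondrial ribosome and are described here by their open chromatin in mouse thymus. They were chosen by name, as the protein-coding genes of the GRCm38 gene table whose symbol is Mrpl or Mrps followed by a number. The rule found 78 of 21631 protein-coding genes on chromosomes 1 to 19 and X. By standard assignments, 51 of them encode proteins of the large subunit and 26 proteins of the small subunit. The remaining one, Mrps36, carries a ribosomal name but is known as a component of the alpha-ketoglutarate dehydrogenase complex.

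The assay was ATAC-seq, which marks accessible DNA by letting a transposase insert adapters there, and it was run on 6 thymus libraries from mice 4 weeks old. There were 3 libraries of genotype p53 AD/-, with a germline p53 allele called AD, which the submitters term dimeric, and a null allele. The 3 others were p53 -/- (p53-null). Both groups therefore lack a normal p53 allele, both had a mixed BALB/C and C57BL6 background, and no wild-type thymus was analysed here. The authors deposited a list of peak summits for each library, from 44496 summits in AD/- library 3 to 60160 in AD/- library 2, each with a score. Scores depend on sequencing depth, which is unknown, so a score is given as a percentile among the summits of the same library, where 100 is the highest. Libraries are numbered in order of deposition. Nothing in the labels says that they came from different mice, so p-values measure only the spread between these libraries.

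The mitochondrial ribosome translates the few messenger RNAs encoded in mitochondrial DNA, all of which specify subunits of the oxidative phosphorylation complexes. Its proteins are all encoded in the nucleus and imported, and are needed in every cell that respires. Their promoters are known for sites of the factors NRF1, GABPA (an ETS family factor) and YY1, which act on many nuclear genes for mitochondrial proteins.

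Thymus identity was checked with marker genes. All 10 T lineage markers, among them Cd3e, Rag1 and Bcl11b, had a summit within 1 kb of a gene end in all 6 libraries. The lists for B cells, myeloid cells, erythroid cells and thymic epithelium held 5 genes each, and 1 gene of each list had a summit in all 6. The myeloid list had 1 gene with a summit in AD/- library 3 and 3 in every other library, and the epithelial list had 1 to 3 genes by library. In whole thymus, a site open in fewer cells and a site less open in each cell cannot be told apart.

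The sequences just before the start sites of 6 genes are shown because they carry, or lack, the motifs that recur in these promoters. They come from RefSeq on GRCm38.p6 and are written 5′ to 3′ on the strand of the gene, ending at the base before the start unless stated. In Mrpl45 and Mrpl17 the capitals mark a core of NRF1 sites, GCGC and TGCGC with any 1 base between them, which reads GCGCA, any base, GCGC on the opposite strand. Mrpl45 has a further match after its start, outside the stretch shown. In Mrpl58 and Mrpl22 they mark CCGGAAG, a core of ETS sites. In Mrps18a they mark an ETS core followed by AAGATGGC, a core of YY1 sites. Mrpl1 has no match to any of these 3 in its window. The stretch of Mrpl58 runs 10 bases past the start and that of Mrps18a 30 bases past it.
Mrpl45, chr11:97315566-97315715, + strand: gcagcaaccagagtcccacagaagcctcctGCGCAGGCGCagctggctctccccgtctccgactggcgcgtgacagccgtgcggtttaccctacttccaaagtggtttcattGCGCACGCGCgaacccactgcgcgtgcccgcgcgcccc
Mrpl17, chr7:105811088-105811237, - strand: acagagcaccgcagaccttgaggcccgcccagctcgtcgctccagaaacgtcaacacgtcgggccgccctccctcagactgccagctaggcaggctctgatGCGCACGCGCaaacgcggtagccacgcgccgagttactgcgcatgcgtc
Mrpl58, chr11:115403602-115403761, + strand: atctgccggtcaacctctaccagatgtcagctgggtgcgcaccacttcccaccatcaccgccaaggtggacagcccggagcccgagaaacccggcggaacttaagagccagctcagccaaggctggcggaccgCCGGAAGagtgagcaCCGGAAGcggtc
Mrpl22, chr11:58171514-58171663, + strand: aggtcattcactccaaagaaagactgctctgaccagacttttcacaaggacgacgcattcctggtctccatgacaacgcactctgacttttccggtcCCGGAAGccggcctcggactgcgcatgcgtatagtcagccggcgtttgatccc
Mrps18a, chr17:46110854-46111033, + strand: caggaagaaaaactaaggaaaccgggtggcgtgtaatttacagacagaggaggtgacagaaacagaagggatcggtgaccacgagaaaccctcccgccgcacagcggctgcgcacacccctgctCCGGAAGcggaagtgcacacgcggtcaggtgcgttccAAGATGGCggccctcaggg
Mrpl1, chr5:96209965-96210114, + strand: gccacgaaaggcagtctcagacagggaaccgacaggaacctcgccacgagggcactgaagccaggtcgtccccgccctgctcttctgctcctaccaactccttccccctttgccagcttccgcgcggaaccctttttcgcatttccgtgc

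Nearly every mitochondrial ribosomal protein gene had open chromatin at a gene end, in both genotypes. A summit lay within 1 kb of an annotated end of 74 of the 78 genes in all 6 libraries (94.9%), of 1 gene in some libraries and of 3 genes in none. Among all 21631 protein-coding genes, 11385 (52.6%) had one in all 6. By library, 75 of the 78 genes had a summit at an end in each of the 3 null libraries and in AD/- libraries 1 and 2, and 74 had one in AD/- library 3, the shortest list. The share averaged 95.7% ± 0.74 over the AD/- libraries and 96.2% ± 0 over the null libraries (SD, n = 3 per genotype). The difference rests on a single gene in a single library. In each genotype, 0 of the 78 genes had a summit at an end in all 3 of its libraries and in no library of the other, compared with 4 of 21631 genes for AD/- (0.0185%) and 7 for null (0.0324%).

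The exceptions are Mrps2, Mrpl4, Mrpl18 and Mrpl24, and their summits lay inside the gene. Start sites listed in the promoter table, which holds 69 of the 78 genes, place these summits. Mrps2, a small subunit protein of the bacterial uS2 family, had its main summit beside the listed start on chromosome 2 at 28468066, at percentiles of 81.7, 82.9 and 77.0 in AD/- libraries 1, 2 and 3 and 81.4, 78.6 and 81.6 in null libraries 1, 2 and 3. All 6 summits lay within 27 bp of that start, and the genotypes overlapped. The summit that AD/- library 3 lacks is a weaker one, at percentiles of 44.6 to 52.3 in the other libraries, beside the neighbouring gene 1700007K13Rik. At Mrpl18, a large subunit protein, the summit lay 142 to 206 bp upstream of the start, toward the start of Tcp1, a subunit of the cytosolic chaperonin. Its percentiles ran from 99.5 to 99.8, above every other gene of the family with a listed start by its median of 99.7. Mrpl24 had a summit 33 to 82 bp upstream of its start, at percentiles of 79.7, 85.1 and 73.5 in AD/- and 79.9, 79.8 and 81.8 in null. Mrpl4 has no listed start, and its summit lay inside the gene, 1603 to 1651 bp from one end, at percentiles from 79.6 to 83.1.

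With listed starts taken into account, 77 of 78 genes had a summit within 1 kb of a gene end or a start in all 6 libraries, compared with 12253 of 21631 protein-coding genes (56.6%). All 69 genes with a listed start had a summit within 1 kb of it in every library, and 67 (97.1%) within 500 bp. Among the 17274 protein-coding genes in the promoter table, 51.6% had one within 500 bp in all 6. For genes with several listed starts, the one closest to the summits was taken, for members and all genes alike, which favours short distances. Of the 2 others, Mrpl20 had its summit 707 to 722 bp from the start, and Mrpl51 lay within 500 bp in every library except null library 3, at 502 bp. In most genes the summit was just upstream. Over the 67 genes the median position was 29 bp before the start, and 44 of them (65.7%) had it upstream, against 25 bp and 63.8% over the 8914 protein-coding genes with a summit that close. Positions repeated closely between libraries. At Mrpl14 the 6 summits spanned 5 bp, at Mrps22 10 bp, and over the 74 genes with an end summit in all 6 libraries the median span was 53.5 bp, against 49 bp over all genes. The end opposite the start seldom had a summit. Where the start and that end were more than 2 kb apart, 3 of 64 members (Mrpl2, Mrpl22 and Mrps18b) had one within 500 bp of it in all 6 libraries, compared with 3.22% of all genes.

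**Figure D1:**
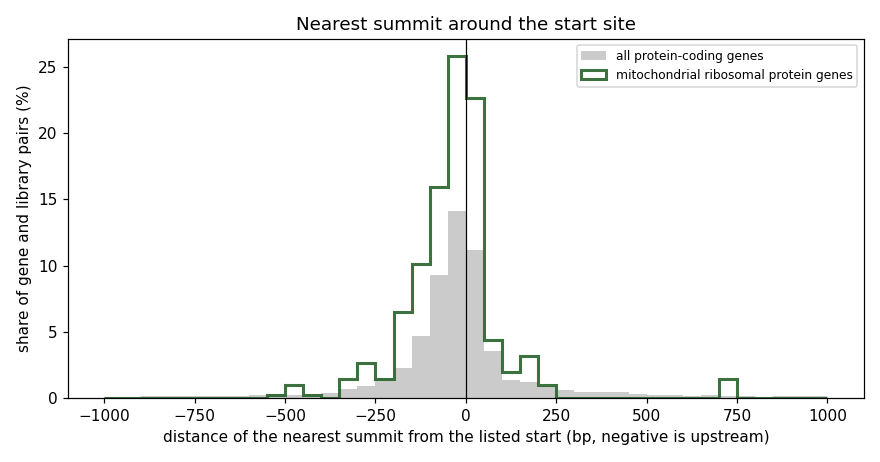
Distance from the listed start to the nearest summit, in bp with negative values upstream, as a share of gene and library pairs in bins of 50 bp. The green outline is the 69 mitochondrial ribosomal protein genes and the grey area all 17274 protein-coding genes with a listed start. The green outline is the higher of the pair around the start, where 67 of 69 members and 51.6% of all genes had a summit within 500 bp in every library.

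The genes differed widely in how strong their summits were. The median percentile over the 74 genes was 90.3, with an interquartile range of 84.8 to 94.9, compared with 89.3 and a range of 79.3 to 94.9 over the 11385 protein-coding genes with an end summit in all 6 libraries. At or above a median of 90 lay 38 of the 74 (51.4%), against 47.4% of all genes. The members thus stood near the background in strength, and apart from it in how many had a summit.

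The strongest ends were those of Mrpl17, Mrps28, Mrpl47, Mrps18b, Mrpl45 and Mrpl51. Mrpl17, a large subunit protein of the bacterial bL17 family, stood at percentiles of 99.6, 99.5 and 99.3 in AD/- and 99.2, 99.9 and 99.8 in null. The NRF1 core in its promoter is shown above. Mrps28, of the small subunit, stood at 99.5, 99.4 and 99.9 in AD/- and 99.2, 99.3 and 99.8 in null. The other 4 had medians of 98.2 to 99.1. Mrpl45, which helps bind the ribosome to the inner membrane, was the one among them with NRF1 cores at 3 places in its window. In these 6 genes the values of the genotypes overlapped. Mrpl47, Mrps18b and Mrpl51 have the start of another gene within 1 kb upstream (Ndufb5, Ppp1r10 and Ncapd2). Their summits therefore cannot be assigned to 1 gene alone.

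The weakest ends were those of Mrps2, Mrps23, Mrpl22, Mrpl53, Mrpl3 and Mrps34. For Mrps23 and Mrpl22, as for Mrps2, the low value belongs to an annotated end away from the listed start. Mrps23 had end percentiles of 46.6, 54.6 and 40.3 in AD/- and 51.3, 50.6 and 53.6 in null. At its listed start, well inside the annotated gene, it had 89.6, 90.5 and 88.7 in AD/- and 91.7, 90.4 and 89.1 in null. Mrpl22 stood at 45.7 to 60.7 at the end and at 77.4 to 82.2 at the start, where its ETS core lies. By summits at listed starts, the lowest were Mrpl53, with percentiles of 75.6, 77.7 and 69.6 in AD/- and 72.1, 69.2 and 75.4 in null, and Mrpl3, with 72.6, 77.0 and 68.1 in AD/- and 78.2, 74.4 and 78.5 in null. In AD/- library 3 both stood below the other AD/- libraries. The median over all protein-coding genes with an end summit was also lower there, at 86.6 against 88.3 and 89.2 in AD/- libraries 1 and 2. At starts the medians of the 69 genes ran from 73.8 to 99.7.

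**Figure D2:**
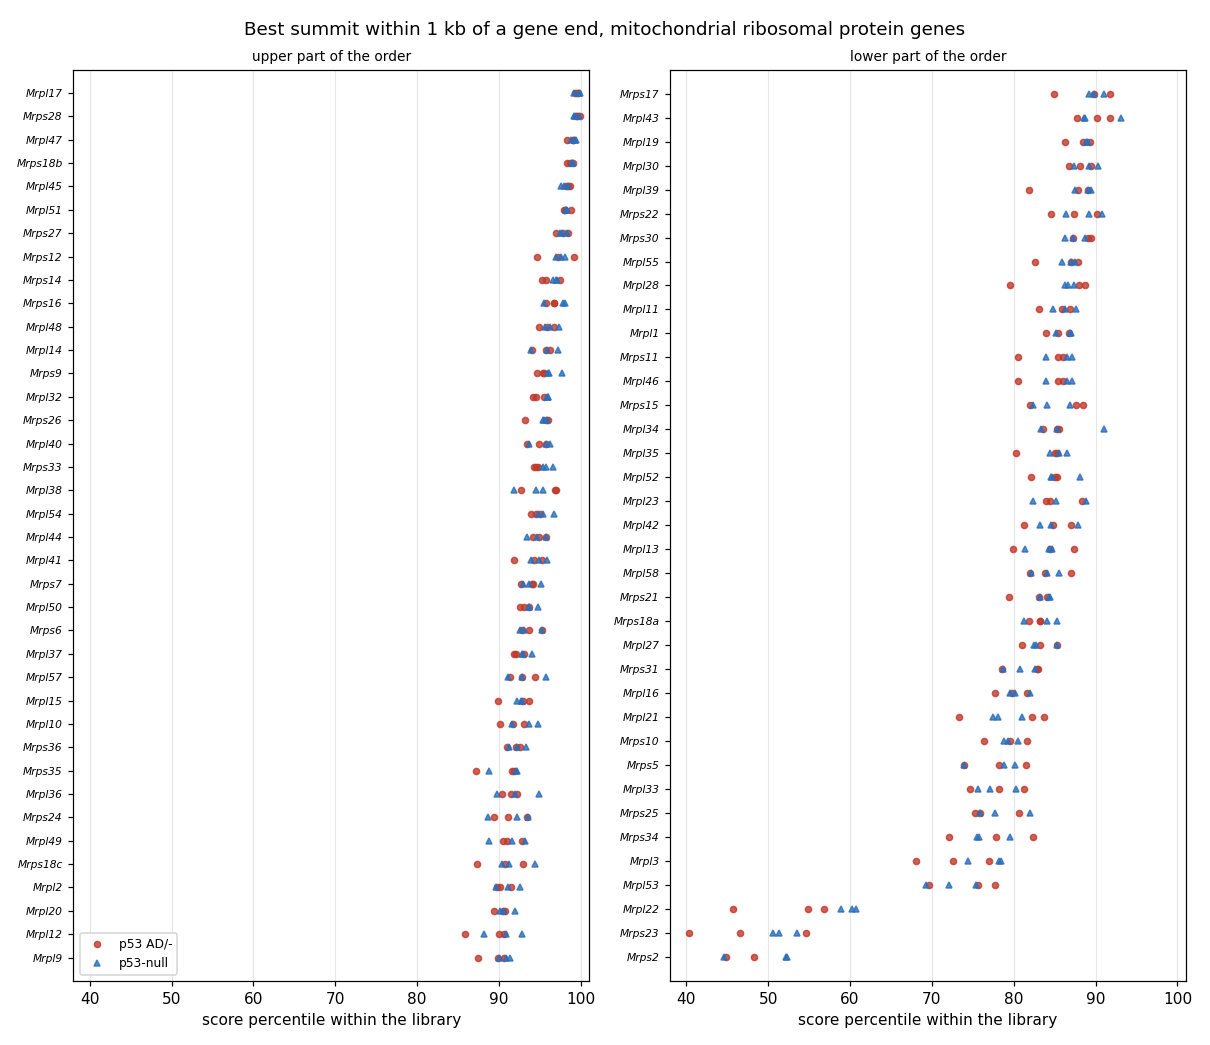
Percentile of the best summit within 1 kb of a gene end for the 75 genes that had one, ordered by median, with 1 point per library (red circles AD/-, blue triangles null). The values run from 99.9 for Mrpl17 in null library 2 down to 40.3 for Mrps23 in AD/- library 3, and red and blue points mix along the order.

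Strength varied widely within each class of ribosomal protein. Large subunit genes had a median percentile of 89.2 (48 of 51 with an end summit in all 6 libraries) and small subunit genes 91.6 (25 of 26). Members with a bacterial counterpart had a median of 89.4 (42 of 46), and those found only in mitochondrial ribosomes 91.7 (31 of 31). The members missing from these counts, Mrps2, Mrpl4, Mrpl18 and Mrpl24, had summits inside the gene in all 6 libraries, as described above. In each of these 4 groups the medians of single genes at ends ranged from under 58 to over 98. The lowest in each group was that of Mrpl22 or Mrps23, whose end summits lie away from the listed start. At their starts Mrpl22 stood at 77.4 to 82.2 and Mrps23 at 88.7 to 91.7. By summits at listed starts, the lowest median of any member was 73.8, for Mrpl53, so part of the spread reflects which end was annotated. The paralogs Mrps18a, Mrps18b and Mrps18c descend from one bacterial protein, and occupy different sites on the ribosome. In the counts above, Mrps18c was placed with the members that have a bacterial counterpart. Mrps18a and Mrps18b were placed with those found only in mitochondrial ribosomes, despite this descent. Their percentiles were 81.3 to 85.3 for Mrps18a, 98.3 to 99.1 for Mrps18b and 87.4 to 94.4 for Mrps18c. The 3 ranges did not overlap. Mrps18b and Mrps18c each lie opposite the start of another gene, and Mrps18a does not. Mrpl12, of the ribosomal stalk, which also binds the mitochondrial RNA polymerase, stood between 85.9 and 90.7 in AD/- and between 88.2 and 92.9 in null, which overlap. Mrpl58, a hydrolase that rescues stalled ribosomes, stood at 74.4 to 80.6 at its start. Mrps36 stood at 90.9 to 93.3, within the range of the ribosomal genes.

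Many of these genes start close to the start of a neighbour that is read in the opposite direction. A start of another protein-coding gene on the opposite strand lay within 1 kb upstream, or overlapped by at most 100 bp, for 25 of the 69 genes with a listed start (36.2%), compared with 8.43% of all 17274. The pairing is read from the annotation, but for genes with several listed starts the start used was the one closest to the summits. The partners are of varied function, among them Hira, a histone chaperone, opposite Mrpl40, and Rab6a, a GTPase of Golgi traffic, opposite Mrpl48. Mrps12, a decoding-site protein, lies 147 bp from Sars2, the mitochondrial seryl-tRNA synthetase, and Mrpl47 lies 308 bp from Ndufb5, a subunit of respiratory complex I. Mrpl43 is paired with Twnk, the mitochondrial DNA helicase, 116 bp away, and Mrpl49 with Fau, which encodes a cytosolic ribosomal protein, 192 bp away. Mrpl46 and Mrps11, of different subunits, face each other with starts 42 bp apart on chromosome 7 (78783089 and 78783131). They share a single summit region at percentiles of 85.3, 86.0 and 80.5 in AD/- and 86.5, 83.9 and 87.1 in null, which overlap.

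Genes with such a partner had the higher median percentile at the start, among members as among all genes. Among members with a summit within 500 bp of the start in all 6 libraries, the median percentile was 93.3 for the 24 with a partner and 86.1 for the 43 without, and 70.8% and 34.9% reached a median of 90. Over all protein-coding genes the same medians were 94.1 (1307 genes) and 89.0 (7607 genes), and 74.6% and 46.3% reached 90. Members without a partner thus stood below the background, by counts and medians that were not tested. The closest pairs beside Mrpl46 and Mrps11 were Mrpl21 with Ighmbp2, 32 bp apart, Mrpl27 with Eme1, 48 bp apart, and Mrpl48 with Rab6a, whose starts overlap by 36 bp. Their medians at the start were 79.5, 83.0 and 96.0, and whether the distance to a partner goes with strength was not tested.

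The promoter windows of these genes, 250 bases before to 50 after the start, were searched on both strands for motifs. Some genes have several windows, and a gene counts when any of them holds a match. The ETS core CCGGAAG was found in 26 of 69 genes (37.7%), compared with 13.1% of all 17274 genes with a window and 22.2% of the 8914 whose start had a summit within 500 bp in all 6 libraries. The NRF1 core was found in 13 (18.8%), against 7.25% and 12.9%, and its form with A as the middle base, which it includes, in 3 (4.35%), against 1.49% and 2.63%. The YY1 core AAGATGGC was found in 12 (17.4%), against 3.60% and 5.63%. At least 1 of these 3 cores was present in 43 genes (62.3%), against 21.3% and 35.8%, and 8 genes had more than 1 of them. Of the 12 YY1 matches, 8 lay 11 to 36 bases after the start and read in the direction of the gene, and of the 31 ETS matches, 28 began within 100 bases of the start. For the other motifs searched, the members' share was below or close to that of genes with a summit. The GC box GGGCGG was found in 49.3% (49.8% of all genes and 73.0% of those with a summit), the CCAAT box in 39.1% (42.7% and 44.0%), and the E-box CACGTG in 7.25% (9.02% and 12.5%). TATAAA was found in 7.25% (14.9% and 7.89%), and the palindrome named for ZBTB33 in 1.45% (0.764% and 1.32%). The median window held 21 CpG dinucleotides, as did that of genes with a summit, against 13 over all genes. These are matches of letters, and binding was not measured.

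**Figure D3:**
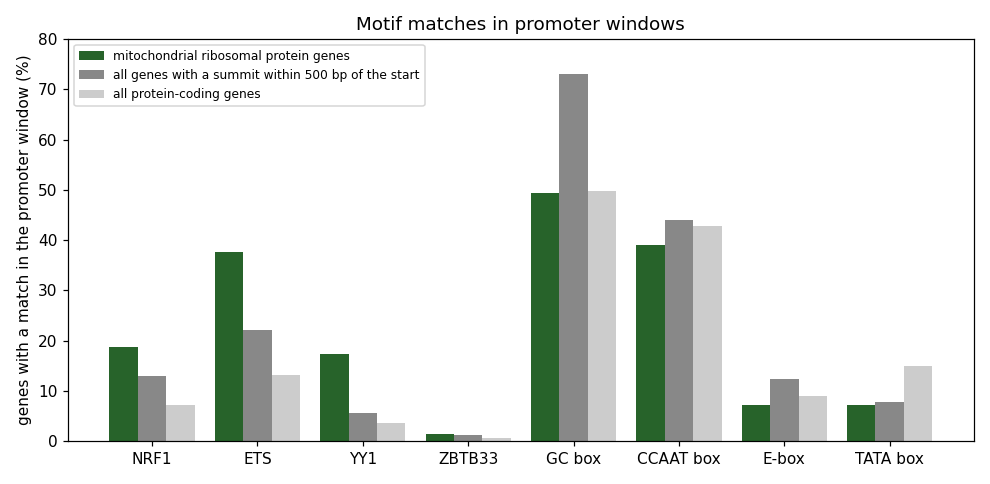
Share of genes with a match in the promoter window, in percent, for the 69 mitochondrial ribosomal protein genes (green), the 8914 protein-coding genes with a summit within 500 bp of the start in all 6 libraries (dark grey) and all 17274 genes with a window (light grey). The green bars are the tallest for NRF1, ETS and YY1, at 18.8%, 37.7% and 17.4%.

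Genes that work with the mitochondrial ribosome were described in the same way. An end summit in all 6 libraries was found for 21 of 21 assembly factors (median percentile 87.9), for 14 of 15 translation factors and partners (medians of single genes from 72.2 to 99.6) and for 15 of 17 mitochondrial aminoacyl-tRNA synthetases (91.3). Aars2 and Wars2, of the synthetases, had none. Of 5 ribosomal proteins named otherwise, such as Ptcd3 and Aurkaip1, 4 had one and Dap3 did not. Wherever a start was listed in these 4 lists, a summit lay within 500 bp of it in all 6 libraries. Cytosolic ribosomal protein genes had an end summit in 74 of 76 cases, with a median percentile of 92.8.

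Regions were also counted, made by extending summits by 250 bp on each side and merging those that overlap. At gene ends and beyond, 183 regions were nearest to one of these genes within 50 kb. Of these, 118 were not at an end of a member, and 59 of the 118 (50%) had a summit in all 6 libraries. Some of the 118 lie at a listed start inside the gene, as at Mrps23. Of all 183, 116 (63.4%) were found in all 6 libraries and 23 (12.6%) in 1, compared with 52.1% and 16.4% of all 73702 regions. Genes differed in how many regions they had. Mrps23 had 13, Mrpl1 had 9, and Mrps27 and Mrpl46 had 8 each, whereas the median gene had 2. The strongest away from an end lay inside Mrps27, a pentatricopeptide repeat protein of the small subunit, 8560 bp from the nearer end, with a median percentile of 96.4, apart from its start. Another lay inside Mrpl58, 3513 bp from an end, at 86.2. One lay 23568 bp from Mrpl3 at 84.2, and one 36984 bp from Mrps18a at 83.8. Whether such regions act on the nearest gene was not measured.

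A single region of the family was found in all 3 libraries of 1 genotype and in none of the other, beside Mrpl1, a large subunit protein of the bacterial uL1 family. It was present in AD/-, as were 132 of all 73702 regions (0.179%). The opposite pattern was found in 0 regions of the family and in 308 of all (0.418%). The summit lay on the same base, 96208732 of chromosome 5, in AD/- libraries 1, 2 and 3, at percentiles of 57.3, 57.4 and 62.0 and scores of 44.3, 48.3 and 40.5. This base is 766 bp outside the annotated gene and at −1383 bp from its listed start, which is upstream. In 2 of the 132 AD/- regions all 3 summits lay on one base, and in 94 of the 4833 regions found in any 3 libraries. The Mrpl1 start itself had a summit in all 6 libraries, 69 to 92 bp upstream of the start, at percentiles of 85.4, 86.8 and 83.9 in AD/- and 87.0, 85.2 and 86.8 in null. The nearest null summit to the AD/- region is that start summit, 1307 bp away. Fisher's exact test of a single region with 3 libraries against 3 gives at best p = 0.1, so the pattern cannot pass a test. The region was called with extensions of 100 and 500 bp, with scores of at least 5, with lists of equal length and with any 1 library left out. Leaving out AD/- library 2 gave a further AD/- region, at Mrpl45, and null regions at Mrpl15 and Mrpl23. Leaving out AD/- library 1 gave 1 null region at Mrpl23, and leaving out null library 2 gave 1 at Mrpl45. With 1 library left out fewer libraries have to agree, and the share over all regions was not computed for these runs.

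**Figure D4:**
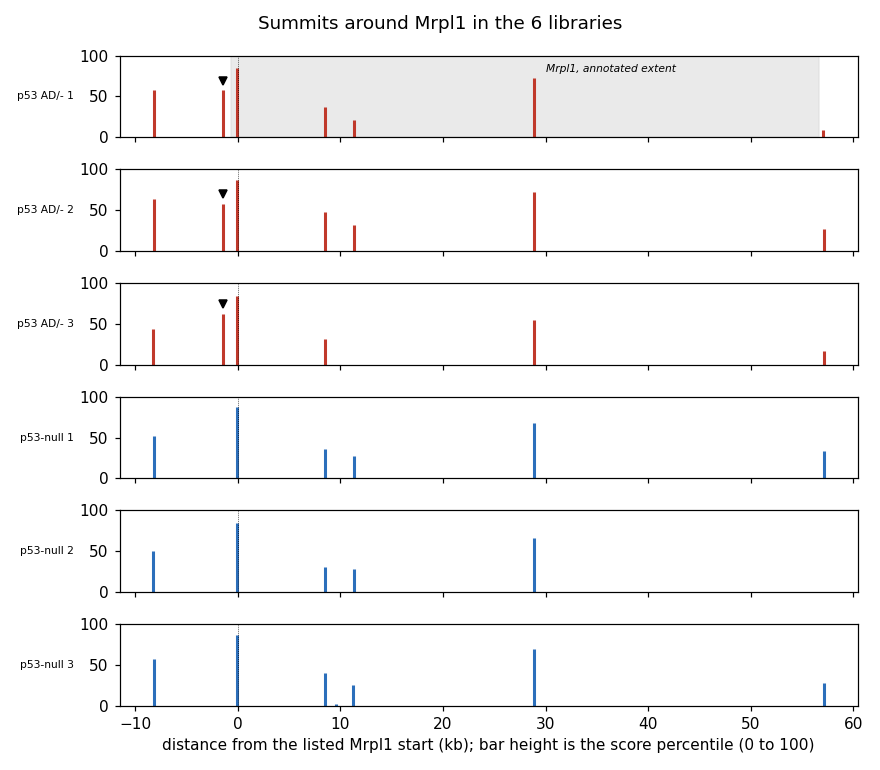
Summits from 10 kb below to 10 kb above Mrpl1 in each library, placed by distance from the listed start in kb, with bar height as the score percentile. The black marks show the summit at −1383 bp, present in the 3 AD/- libraries at percentiles of 57.3 to 62.0 and in none of the 3 null libraries; the grey band in the top panel is the annotated gene.

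The strength of regions found in all 6 libraries was then compared between genotypes. Each library's scores were ranked over the same 38374 regions, so that lists of different length give comparable ranks, and limma was fitted to normal scores of the ranks over all of them. Of the 138 regions at an end of a member or nearest to one, 0 passed an adjusted p of 0.05, as did 0 of all 38374 (0.0%). At an unadjusted p under 0.05 there were 5 of the 138 (limma), against 1901 of 38374 (4.95%). The median difference between mean ranks, AD/- minus null, was −0.07 percentile points over the 138 and −0.02 over all. The size of the rank difference had a median of 0.889 points over the 79 regions at gene ends, 1.80 points over the 59 elsewhere and 1.85 points over all regions. Points near the top of the scale are compressed, so the same number of points is a larger shift in normal scores there. The 95% interval of a difference reached a median of 0.20 normal-score units to each side, so small shifts were not detectable.

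In 7 of the 138 regions (5.07%) all 3 AD/- ranks lay above all 3 null ranks, and in 2 (1.45%) below. Over all regions the shares were 5.05% and 4.65%. The count of 9 changed with single libraries, and so did the background, since fewer libraries have to separate. Without AD/- library 1 it was 21, with 8.39% of member regions higher in AD/- and 6.29% higher in null, against 9.25% and 8.98% of all regions. Without AD/- library 3 it was 38, with 11.8% and 13.2% against 11.3% and 11.1%. Without null library 2 it was 25, with 7.04% and 10.6% against 9.08% and 8.85%. Without null library 3 it was 33, with 17.1% and 6.43% against 12.2% and 11.6%. The count was 13 without AD/- library 2, with 11 member regions higher in AD/- and 2 higher in null. These were 7.97% and 1.45% of member regions, against 9.16% and 9.01% of all regions. A count of 13 was also found without null library 1, with 9 and 4 (6.52% and 2.899%, against 8.75% and 8.25% of all regions). More member regions were higher in null only without AD/- library 3 or without null library 2. Over all regions, the share higher in AD/- was slightly the larger in every run with 1 library left out. The members' share higher in AD/- exceeded that of all regions only without AD/- library 3 or without null library 3. These runs share most of their libraries, so their directions are not independent.

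The largest differences among these lay away from gene ends, in regions of low to middle rank. The region with the lowest adjusted p lay 4517 bp outside Mrps31, a small subunit protein, at position 22405932 of chromosome 8 and 1595 bp from the pseudogene Gm6009. Its ranks were 14.4, 14.5 and 11.2 in AD/- and 3.83, 3.10 and 2.13 in null, a difference of 0.78 ± 0.09 normal-score units (SE; limma, adjusted p = 0.52). All AD/- ranks were higher, and the call did not pass. A region inside Mrps10, on chromosome 17 at 47371653, had ranks of 28.9, 31.0 and 27.8 in AD/- and 15.7, 24.4 and 15.8 in null (limma, adjusted p = 0.94). The region 41170 bp from Mrpl23 on chromosome 7, at 142581917, lay 3771 bp from H19, an imprinted gene for a long noncoding RNA. It had ranks of 11.6, 9.28 and 13.4 in AD/- and 4.47, 6.97 and 1.98 in null (limma, adjusted p = 0.94). A region 31838 bp from Mrps23, at 88162268 of chromosome 11, had 47.6, 53.4 and 54.0 in AD/- and 43.7, 45.7 and 39.2 in null (limma, adjusted p = 0.96). On percentiles within each whole list, which differ in length, the regions at Mrps10, Mrpl23 and Mrps23 overlapped between genotypes, and that at Mrps31 did not, with 18.7 to 40.7 in AD/- and 16.3 to 17.8 in null.

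At gene ends the separated regions differed by fewer rank points. That of Mrpl53 had mean ranks of 65.4 in AD/- and 60.1 in null, and that of Mrps10 71.7 and 70.4. Below null lay Mrps9, with 93.4 and 95.1, and a region at the end of Mrps18b opposite its start, with 75.5 and 76.7. The fifth AD/- region away from ends was inside Mrpl1, 9144 bp from the nearer end, with 20.9 and 14.6. All 5 of these had an adjusted p of 0.999 (limma).

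**Figure D5:**
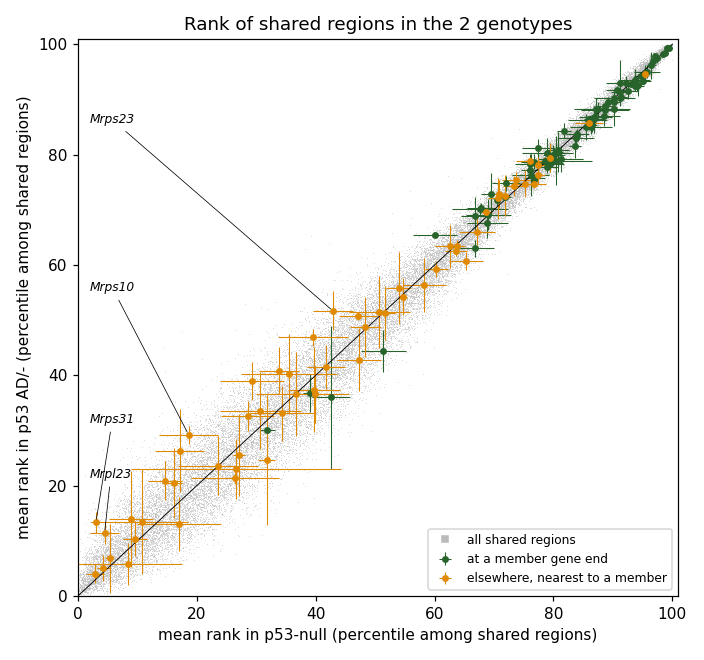
Mean rank of each shared region in null (x) and AD/- (y), as a percentile among the 38374 regions with a summit in all 6 libraries. Grey dots are all regions, and coloured points with SD bars over 3 libraries are the 79 regions at a member gene end (green) and the 59 elsewhere (orange); green points lie close to the diagonal, and the 4 named regions lie above it with adjusted p from 0.52 to 0.96.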

How the data were processed

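ATAC-seq summit lists of 6 thymus libraries were used, 3 per genotype, grouped by the genotype label. Per the submitters' processing notes, which give no roles or settings, the authors used MACS2 2.1.2, Bowtie2 2.3.4.2, Trim Galore 0.4.5 and Picard 2.9.0 with GRCm38; filters, read shifting and masking are not given in the sources used here. The deposited scores were read as −log10 of a q-value, because the lowest in each list is 1.30 to 1.39, which is near a q of 0.05. Lists were made per library.

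From these, percentiles within each library, summits within 1 kb of either end of 21631 RefSeq genes, and merged regions were computed (Python 3.11.15, pandas 2.3.3). Starts and strands came from a RefSeq promoter table matching 69 of 78 members. A gene with several starts was placed at the one nearest to the summits. All listed starts were used in looking for partner starts and in the motif search, where any window of a gene could match. Ranks over shared regions were fitted with limma 3.58.1 with Benjamini-Hochberg adjustment, and the fit was tested on simulated data. Gene lists are described by counts, without a test. Members, lists and rules were chosen with earlier results of these data known. Named genes are members lacking an end summit in any library, the 6 strongest and 6 weakest, those with genotype-specific or separated regions (up to 5 per direction; the Mrpl53 and Mrps10 ends are named beyond that), those nearest another gene, taken by distance between starts, the Mrps18 paralogs and Mrps36, Mrpl12, Mrpl58 and Mrpl1. The partners Sars2, Ndufb5, Twnk, Fau, Hira and Rab6a, the regions at Mrps27, Mrpl3 and Mrps18a, and the members with a narrow span of positions were picked after their values were seen. Alternatives were other windows, extensions and score limits, equal-length lists and leaving out each library.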

Additional observations from a re-analysis of the deposited data

How the results depend on the processing

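The number of genes with an end summit in all 6 libraries was 66 with a window of 500 bp, 77 with 2 kb, 74 with a score of at least 5 or lists of equal length, and 74 to 75 with any 1 library left out. Counting listed starts as well, an alternative chosen after seeing the data, gave 77. The share in AD/- minus that in null stayed between −0.64 and 0 percentage points. The median percentile averaged over libraries was 89.7, and 87.5 with lists of equal length, which drop the weakest summits; it was 89.5 to 90.2 with 1 library left out. AD/- specific regions numbered 2 (Mrpl1 and Mrps31) with lists of equal length. In the full lists each region nearest to Mrps31 had a summit in all 6 libraries. AD/- specific regions numbered 0 once regions with a null summit within 2 kb were left out, since the Mrpl1 start lies that close. With 1 library left out they numbered 1 to 2. Null-specific regions numbered 1 with a score of at least 5 (Mrpl46), 1 with lists of equal length (Mrpl14), and 0 to 2 with 1 library left out. For genotype-specific regions, shares over all regions were not computed in these alternatives. In every alternative run, limma called 0 member regions. Regions with separated ranks numbered 8 with scores divided by the library median (5.80% of member regions higher in AD/- and 0% in null, against 5.07% and 3.42% of all regions). They numbered 10 with extensions of 500 bp (5.80% and 1.45%, against 5.06% and 4.69%), and 13 to 38 with 1 library left out, where the shares over all regions ran from 8.75% to 12.2% for AD/- and from 8.25% to 11.6% for null. No paired analysis was possible because the labels give no replicate numbers. Read depth is unknown, and with 3 libraries a genotype only large differences in rank could pass.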

Other observations

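At Mrpl20, a large subunit protein, the summit lay 707 to 722 bp downstream of the listed start in all 6 libraries, at percentiles of 89.3 to 92.0, and within 1 kb upstream it had no listed partner. At Mrpl36 the end summit, at percentiles of 89.8 to 94.9, lies beside Ndufs6, a complex I subunit, and a separate summit lay at the listed start of Mrpl36 itself, at 81.2 to 85.6. At Mrpl51 the summit lay 437 to 502 bp upstream of the start, toward Ncapd2, a condensin subunit whose start is 614 bp away. These genes were chosen after their values were seen.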
